A study of Ovis aries with 15 samples.

Results

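Interferon-stimulated genes were examined in RNA-seq libraries of ruminal epithelium from male Hu lambs, 6 months old. This tissue is the layered inner surface of the largest stomach chamber and takes up fermentation acids. The members came from a list of 41 gene symbols, each taken from the row of the deposited tables that carries it. Of these, 37 had a row among the 19304 genes of each table; IFIT1, BST2, SAMD9 and GBP4 were not analysed under those symbols. A further member, OAS2, missed the filter for testing (at least 1 FPKM in at least 5 libraries), which left 36 members among 13084 genes tested. Every member tested reached 1 FPKM in libraries of more than a single group. However, DDX58, ZBP1, HERC6, RSAD2 and ISG20 stayed below 1 FPKM in every HP library. They passed the filter only through CON and HG libraries, so counting them as lower in HP is not independent of that filter.

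The series holds 15 RNA-seq libraries in 3 groups of 5, named CON, HG and HP in the labels. Its title speaks of pelleted and non-pelleted high-grain feed, so HG was read as the group fed high grain without pelleting, HP as the group fed it pelleted and CON as control lambs; breed, sex and age were the same in all groups, and no other treatment is labelled. Whether every library is a separate animal is not stated, and p-values therefore measure the spread between these libraries. In a whole-tissue sample, fewer cells of a type and less RNA per cell cannot be told apart.

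Interferons are secreted when a cell detects viral or other misplaced nucleic acid. Through their receptors and the JAK kinases they activate STAT proteins, among them STAT2, which joins IRF9 in a transcription factor that binds the promoters of interferon-stimulated genes. Those genes encode sensors that detect more viral RNA, regulators that feed back on the pathway, and effectors that block viruses, and many are transcribed at a basal level in barrier epithelia without infection.

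Values were FPKM, fragments scaled by gene length and by library total, so levels of different genes can be compared, while the read depth of each library is unknown. The median FPKM over all genes was lowest in CON3 (1.52) and CON1 (1.982) and between 2.513 and 3.187 in the other libraries, and the median log2 difference over all genes tested was 0.17 in HG relative to CON, 0.18 in HP relative to CON and 0.01 between the diets (HP minus HG). Keratinocyte markers were present, 10 of 10 tested, with a summed level of 3482.1 to 4906.4 FPKM in CON, 4168.3 to 5478.2 in HG and 3418.1 to 6814.8 in HP. Smooth muscle markers summed to over 1000 FPKM in CON1, HG2, HG3 and HP5 (1229 to 3904) and to 117.1 to 572.4 in the other libraries.

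Interferon-stimulated genes stood lower in every HP library than the average of CON, while HG held the library with the highest and the library with the lowest values of the study. Relative to the CON mean of each gene, the median over the 36 members tested was -0.67, -0.93, -0.69, -0.40 and -0.90 on the log2(FPKM + 1) scale in HP1 to HP5. In HG1 to HG5 the same median was -1.14, 1.06, -0.66, 0.16 and -0.43, and in CON1 to CON5 it was 0.15, 0.25, -0.53, 0.37 and -0.25. By this measure 4 HP libraries lay below every CON library, and HP4 lay between CON3 and CON5. The median over all 13084 genes tested, taken the same way, was 0.10 to 0.23 in HP, 0.14 to 0.22 in HG and -0.28 to 0.15 in CON. No member passed an adjusted p of 0.05 (limma) in any comparison, so the differences below are values with their errors, read against the same counts over all genes.

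**Figure D1:**
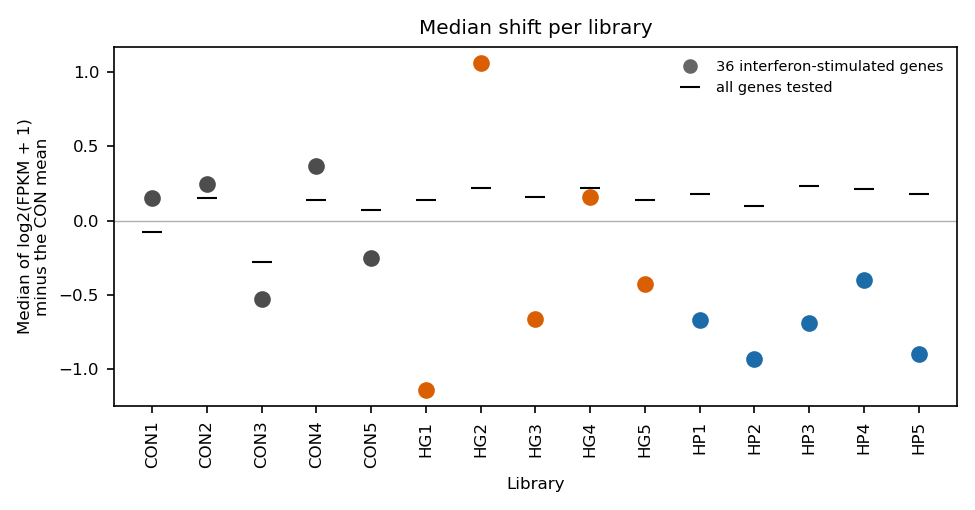
Median of log2(FPKM + 1) minus the CON mean of each gene (y axis, log2 units) in each of the 15 libraries (x axis), for the 36 interferon-stimulated genes tested (circles, coloured by group) and for all 13084 genes tested (dashes). The 5 HP circles lie between -0.93 and -0.40, and the HG circles span -1.14 (HG1) to 1.06 (HG2).

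Single members followed this order of libraries closely. HG2 was the highest of all 15 libraries for 31 of 36 members, against 8.75% of all genes tested, and HG1 was the lowest for 18 of 36, against 3.95%. Within HG, HG2 was highest for 35 of 36 members (23.2% of all genes) and HG1 lowest for 30 of 36 (20.6%). HG2 exceeded HG1 by a median of 9.25 times over the 36 members and by 1.04 times over all genes tested. The ratio was widest for ISG15 (161.7), followed by RSAD2 (52.1), ISG20 (47.4), HERC6 (47.1) and MX2 (46.2), and was narrowest for TRIM25 (1.34), IRF1 (1.71) and STAT2 (1.95). By role, its median was 25.9 for the 10 antiviral effectors, 19.1 for the 6 genes of the ISG15 conjugation system, 5.98 for the 5 sensors and 2.85 for the 4 regulators. The median range between the highest and lowest library of a group, in log2 units, was 2.28 for the members in HG, 1.07 in CON and 0.70 in HP, and over all genes tested it was 0.55, 0.85 and 0.70.

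**Figure D2:**
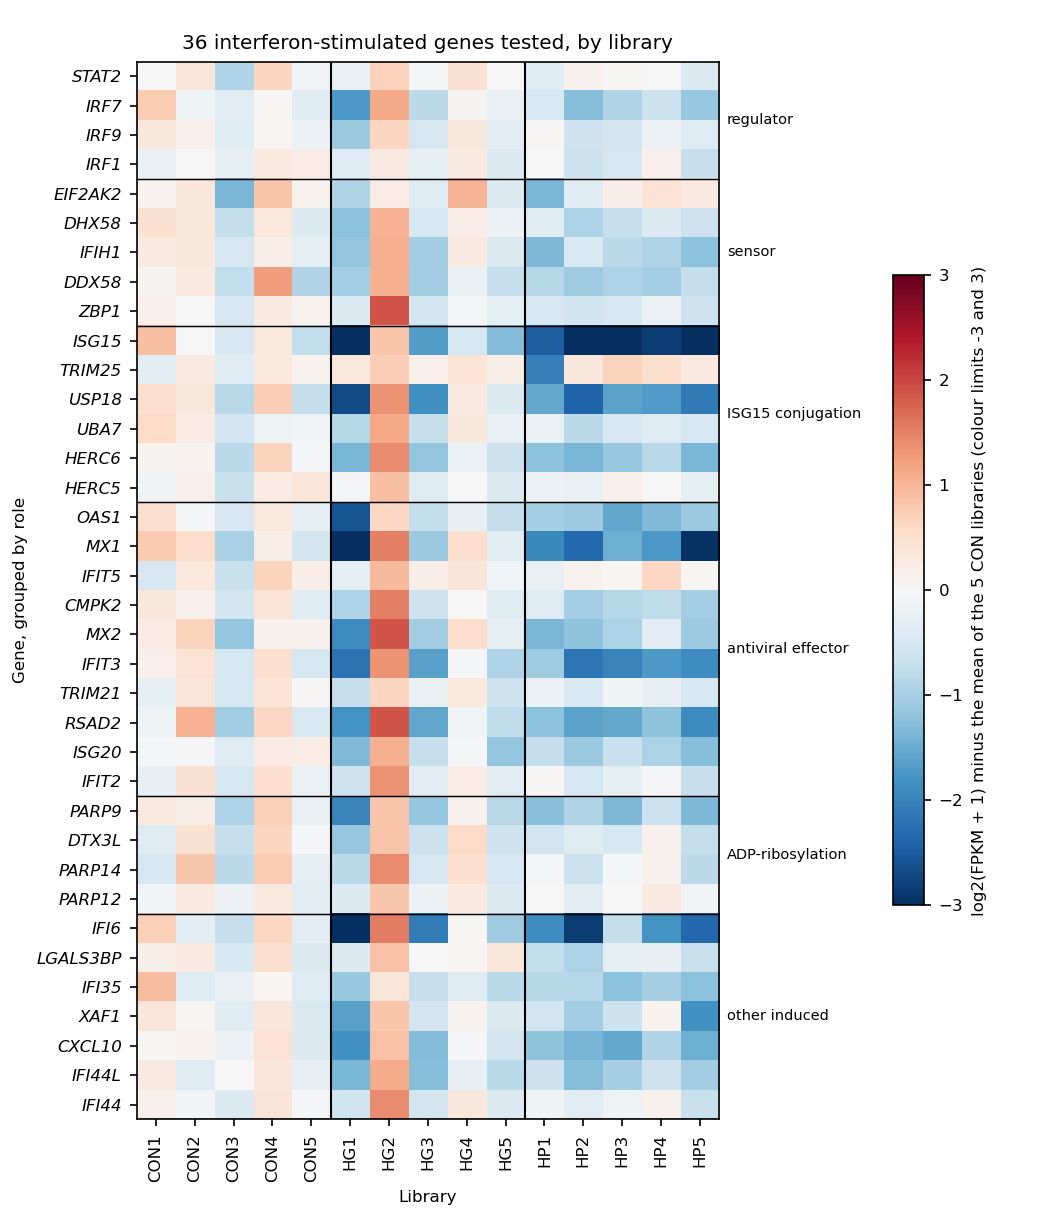
Values of the 36 interferon-stimulated genes tested (rows, grouped by role) in the 15 libraries (columns), as log2(FPKM + 1) minus the mean of the 5 CON libraries; red is above that mean, blue below, and colours stop at -3 and 3. HG2 is red in nearly every row, HG1 and the HP libraries are blue in most, and TRIM25 and EIF2AK2 follow these columns least.

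The regulators had the narrowest median ratio of HG2 to HG1 of the roles. STAT2, the subunit that brings an activation domain to the factor that holds IRF9, was 18.7, 24.2, 9.34, 29.4 and 17.5 FPKM in CON1 to CON5. In HG1 to HG5 it was 15.7, 30.6, 17.9, 25.8 and 18.7, and in HP1 to HP5 it was 14.3, 20.5, 19.1, 18.6 and 13.5. Its groups overlapped, the lowest value of all lay in CON3, and the log2 difference of HP from CON was -0.12 ± 0.251 SE (limma adjusted p 0.77). IRF9, the DNA-binding partner of STAT2, was 21.3, 18.4, 12.6, 17.3 and 14.6 FPKM in CON1 to CON5. HG1 to HG5 had 7.11, 26.6, 11.3, 21.2 and 13.1, and HP1 to HP5 had 17.1, 10.4, 10.9, 14.6 and 12.4. HP and CON overlapped for IRF9, and HG alone covered the range of all 15 libraries, from 7.11 in HG1 to 26.6 in HG2.

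IRF7, the interferon regulatory factor that is itself induced and amplifies interferon transcription, was 37.4, 19.7, 16.9, 22.1 and 16.6 FPKM in CON1 to CON5. It stood at 5.81, 48.7, 12.1, 23 and 18.4 in HG1 to HG5 and at 15.3, 8.3, 11.1, 13.4 and 9.31 in HP1 to HP5. It was the regulator whose HP libraries all lay below all CON libraries; the mean was 11.5 ± 2.87 FPKM in HP and 22.5 ± 8.61 in CON (SD, n = 5 each), a log2 difference of -0.88 ± 0.395 SE with an unadjusted limma p of 0.041 and an adjusted p of 0.164. IRF1, a factor induced mainly by interferon gamma, was 5.04, 6.09, 4.73, 7.58 and 7.26 FPKM in CON1 to CON5. The level was 4.42, 7.56, 4.8, 7.49 and 4.26 in HG1 to HG5 and 6.06, 3.52, 3.99, 6.82 and 3.35 in HP1 to HP5, with groups that overlapped and a log2 difference of -0.34 ± 0.209 SE (adjusted p 0.295). The median log2 difference over the 4 regulators was -0.34 for HP against CON and -0.15 for HG against CON.

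Of the sensors, 2 of 5 were lower in HP than CON at an unadjusted p under 0.05, as were 5.24% of all genes tested. DDX58, which is in the 2, passed the filter only through CON and HG libraries, so this count is not independent of that filter. IFIH1 (MDA5), a helicase that binds long double-stranded RNA, was 11.2, 11.7, 6.12, 10.6 and 7.25 FPKM in CON1 to CON5. HG gave 3.42, 20.4, 3.87, 11.2 and 6.48 in the same order, and HP gave 2.95, 6.37, 4.86, 4.38 and 3.29. The HP values were the lowest as a group, with a mean of 4.37 ± 1.36 FPKM against 9.38 ± 2.53 in CON, although HP2 (6.37) stood above CON3 (6.12); the log2 difference was -0.95 ± 0.357 SE (limma p 0.0171, adjusted 0.119). DDX58 (RIG-I), which senses short viral RNA with a triphosphate end, was 2.11, 2.55, 0.762, 5.94 and 0.566 FPKM in CON1 to CON5, 0.436, 5.08, 0.415, 1.5 and 0.802 in HG1 to HG5 and 0.611, 0.386, 0.537, 0.429 and 0.784 in HP1 to HP5. CON4 and HG2 stood apart at over 5 FPKM, and CON3 and CON5 lay within the HP range. The log2 difference of DDX58 was -0.92 ± 0.405 SE (limma p 0.0379, adjusted 0.159).

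DHX58 (LGP2), which modulates both of these helicases, was 13.7, 12.6, 5.55, 12.4 and 6.97 FPKM in CON1 to CON5. In HG1 to HG5 it was 3.55, 21.2, 6.41, 11.2 and 8.49, and in HP1 to HP5 it was 7.36, 4.56, 5.57, 7.07 and 5.93. Its HP values overlapped with the lower CON libraries CON3 and CON5, and the log2 difference was -0.61 ± 0.339 SE (adjusted p 0.248). ZBP1, a sensor of Z-form nucleic acids that can trigger cell death, was 1.29, 1.03, 0.451, 1.5 and 1.2 FPKM in CON1 to CON5. HG1 to HG5 had 0.522, 6.57, 0.392, 0.964 and 0.695, and HP1 to HP5 had 0.453, 0.371, 0.475, 0.785 and 0.345. HG2 stood far above every other library for ZBP1, and the remaining 14 libraries lay between 0.345 and 1.5 FPKM. EIF2AK2 (PKR), the kinase that halts translation on binding double-stranded RNA, was 11.6, 13.8, 3.52, 19.7 and 11.6 FPKM in CON1 to CON5. It stood at 5.26, 12.6, 7.93, 22.9 and 7.87 in HG1 to HG5 and at 3.51, 8.15, 12.5, 14.9 and 13.1 in HP1 to HP5, with no separation between groups, the lowest values in HP1 and CON3 and the highest in HG4.

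**Figure D3:**
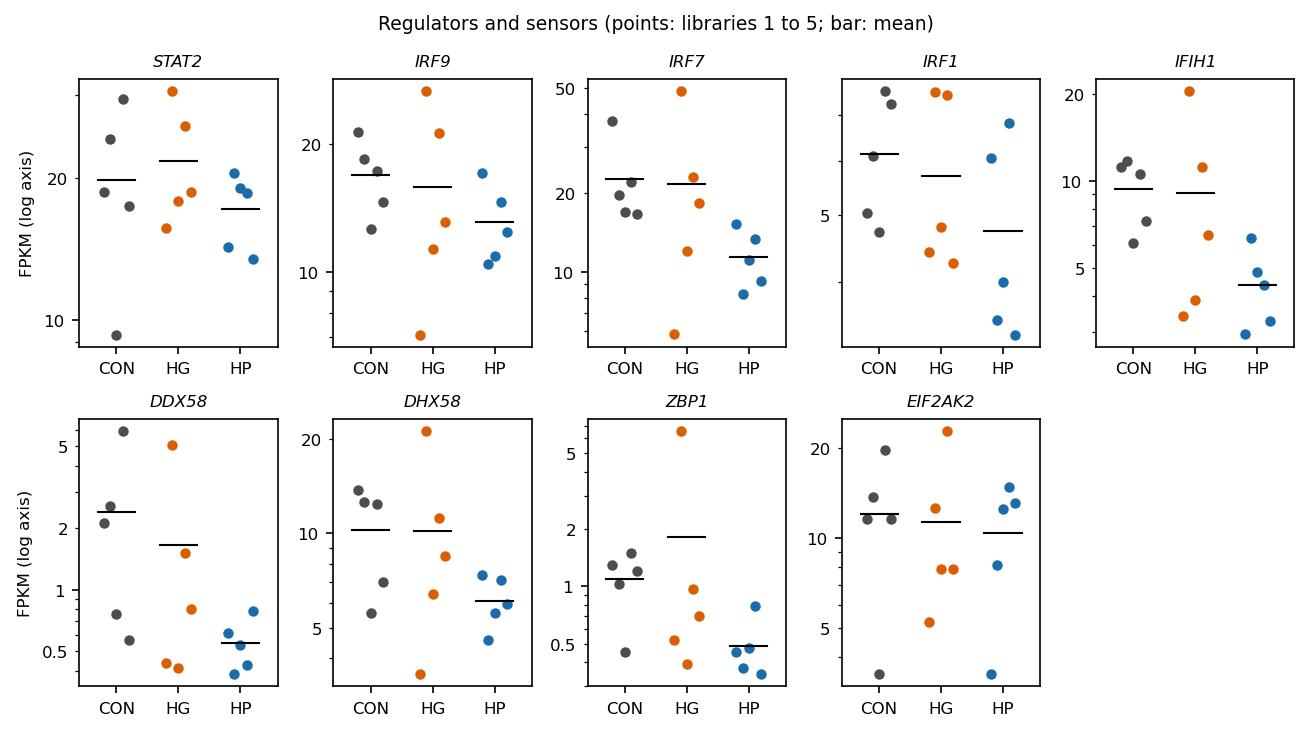
FPKM (log axis) of the 4 regulators and 5 sensors in CON, HG and HP; each point is 1 library, placed from left to right as replicate 1 to 5, and the bar is the group mean. HG2 is the highest point for STAT2, IRF9, IRF7, IFIH1, DHX58 and ZBP1, and IRF7 is the gene in which the HP points all lie under the CON points.

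The ISG15 system held the member with the largest difference between HP and CON. ISG15, a ubiquitin-like protein that is attached to other proteins during antiviral responses, was the member with the highest mean in CON and in HG but not in HP, where OAS1 (28.6 FPKM) and IFI6 (27.6) exceeded it. Its values were 400.4, 214.8, 153.5, 267.1 and 127.9 FPKM in CON1 to CON5. The level was 2.36, 382.4, 66, 149.6 and 86.9 in HG1 to HG5 and 37.9, 24.8, 9.65, 29 and 15.2 in HP1 to HP5. No HP library reached the lowest CON library, and HG ran from the lowest ISG15 level of the study (HG1) to nearly the highest (HG2). The mean of 232.7 ± 108.3 FPKM in CON was 9.99 times that of HP (23.3 ± 11.2; SD, n = 5 each). The log2 difference was -3.29 ± 0.933 SE (95% interval -5.29 to -1.29, limma p 0.00336, adjusted 0.0991).

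USP18, the protease that removes ISG15 and dampens receptor signalling, was 16.5, 14.8, 6.08, 20 and 6.59 FPKM in CON1 to CON5. HG gave 0.957, 30.9, 2.48, 14.2 and 8.23 in the same order, and HP gave 3.3, 1.39, 3.11, 2.84 and 1.88. Again no HP library reached a CON library (log2 difference -1.88 ± 0.6 SE, limma p 0.00697, adjusted 0.101). HERC6, a ligase for ISG15 in mouse, was 2.13, 2.18, 0.692, 3.68 and 1.81 FPKM in CON1 to CON5, 0.147, 6.92, 0.287, 1.56 and 0.887 in HG1 to HG5 and 0.254, 0.144, 0.334, 0.658 and 0.139 in HP1 to HP5, and its HP libraries also lay below every CON library (log2 difference -1.19 ± 0.411 SE, p 0.0108, adjusted 0.109). The other genes of the system had unadjusted p-values above 0.05. HERC5, the main human ISG15 ligase, was 0.384 to 1.81 FPKM in CON, 0.638 to 3.1 in HG and 0.828 to 1.43 in HP, and UBA7, the enzyme that activates ISG15, was 2.19 to 6.01, 1.63 to 9.52 and 1.71 to 3.14. TRIM25, a ligase that acts on RIG-I and can also transfer ISG15, was 14.7, 23, 13.9, 23.5 and 19.9 FPKM in CON1 to CON5. In HG1 to HG5 it was 23.4, 31.5, 20.8, 24.9 and 21, and in HP1 to HP5 it was 3.7, 23.7, 30.1, 27.2 and 23.1. Apart from HP1, its HP values lay between 23.1 and 30.1 FPKM, and its mean was 21.6 ± 10.4 in HP and 19 ± 4.52 in CON (log2 difference -0.05 ± 0.396 SE). Its values followed the median of the other members least of all (Pearson r 0.18 over 15 libraries).

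Among antiviral effectors, 6 of 10 tested were lower in HP than CON at an unadjusted p under 0.05 and 5 of 10 lay wholly below CON, against 5.24% and 0.825% of all genes tested. RSAD2 and ISG20 are in both counts and passed the filter only through CON and HG libraries. These counts are therefore not independent of that filter. OAS1, which makes the second messenger that activates RNase L, was 95.1, 65.3, 47.4, 83.9 and 55.9 FPKM in CON1 to CON5. HG1 to HG5 had 10.4, 104.4, 39.8, 56.6 and 40.4, and HP1 to HP5 had 32.7, 31.3, 22.1, 26.4 and 30.5; OAS genes of ruminants have close relatives whose reads may be shared, so its level is uncertain. The HP libraries lay under all CON libraries, and only HG1 was lower still (log2 difference of HP from CON -1.22 ± 0.415 SE, adjusted p 0.106). MX1, a GTPase that traps viral ribonucleoproteins, was 43.5, 36.7, 12.3, 29 and 16.7 FPKM in CON1 to CON5. It stood at 1.84, 72.6, 11, 36.7 and 19.5 in HG1 to HG5 and at 5.85, 4.13, 8.38, 6.89 and 2.31 in HP1 to HP5. The separation of HP from CON was again complete, with HG1 below both and HG2 above both (log2 difference -2.08 ± 0.678 SE, limma p 0.00803, adjusted 0.102).

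IFIT3, which stabilises the complex that binds foreign RNA caps, was 5.77, 7.26, 3.29, 7.51 and 3.26 FPKM in CON1 to CON5. The level was 0.326, 14.7, 1, 5.03 and 2.21 in HG1 to HG5 and 1.93, 0.355, 0.54, 0.866 and 0.677 in HP1 to HP5. The CON mean was 6.2 times the HP mean (log2 difference -1.77 ± 0.508 SE, limma p 0.00329, adjusted 0.0991). RSAD2 (viperin), an enzyme that makes a chain-terminating nucleotide, was 3.08, 8.3, 1.2, 5.91 and 2.3 FPKM in CON1 to CON5. HG gave 0.304, 15.8, 0.527, 3.31 and 1.65 in the same order, and HP gave 0.94, 0.49, 0.55, 0.946 and 0.212, with every HP library below every CON library (log2 difference -1.50 ± 0.571 SE, adjusted p 0.123). ISG20, an exonuclease that degrades RNA, was 1.69, 1.64, 1.11, 2.28 and 2.21 FPKM in CON1 to CON5, 0.1, 4.76, 0.699, 1.65 and 0.211 in HG1 to HG5 and 0.69, 0.262, 0.72, 0.427 and 0.13 in HP1 to HP5. It separated HP from CON in the same way (log2 difference -0.95 ± 0.345 SE, adjusted p 0.114). Both genes were below 1 FPKM in HP, where the 1 added before the logarithm shrinks the difference. CMPK2, a nucleotide kinase whose product feeds the viperin reaction, was 2.78 to 6.36 FPKM in CON and 1.72 to 3.21 in HP, groups that overlapped (log2 difference -0.81 ± 0.356 SE, p 0.0366, adjusted 0.157).

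The remaining effectors overlapped between HP and CON. MX2, a relative of MX1 that blocks HIV in human cells, was 1.26 to 7.03 FPKM in CON, 0.387 to 17.9 in HG and 0.978 to 3 in HP (log2 difference of HP from CON -0.99 ± 0.545 SE, adjusted p 0.242). IFIT2, a relative of IFIT3 that binds RNA, and TRIM21, the intracellular antibody receptor, had log2 differences of -0.30 ± 0.318 SE and -0.31 ± 0.252 SE, and IFIT5, which binds viral RNA ends, had 0.12 ± 0.271 SE, the 1 member with a log2 difference above 0. OAS2, which acts as OAS1 does and was not tested, was 0.49, 0.702, 0.225, 0.941 and 0.151 FPKM in CON1 to CON5. In HG1 to HG5 it was 0.0567, 2.12, 0.273, 0.727 and 0.0876, and in HP1 to HP5 it was 0.301, 0.22, 0.192, 0.271 and 0.135.

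**Figure D4:**
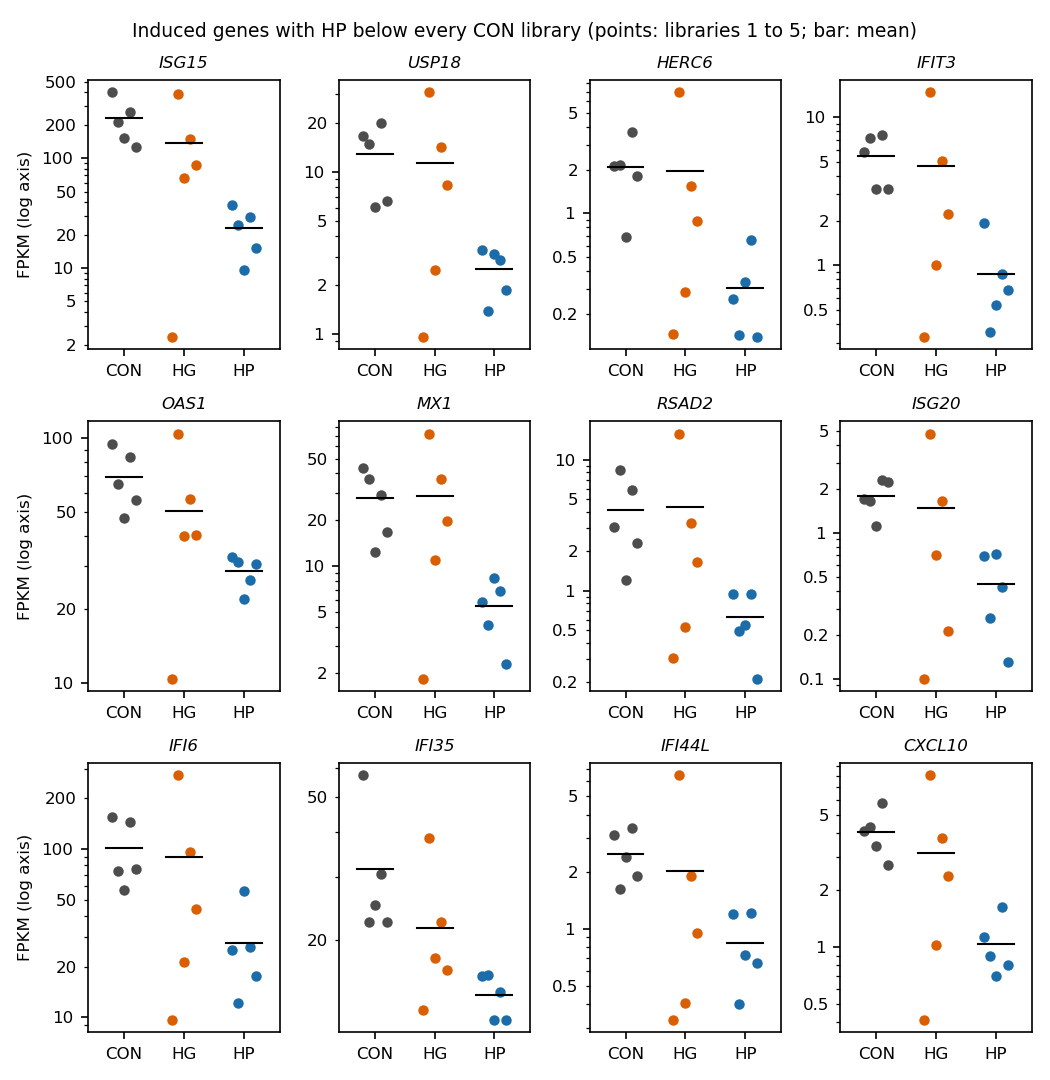
FPKM (log axis) in CON, HG and HP of the 12 effectors and other induced genes, regulators left out, for which no HP library reached a CON library; each point is 1 library, placed from left to right as replicate 1 to 5, and the bar is the group mean. For ISG15 the HP points lie between 9.65 and 37.9 FPKM and the CON points between 127.9 and 400.4, while the HG points run from 2.36 to 382.4.

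IFI6, a small membrane protein of the endoplasmic reticulum that restricts flaviviruses, had the second highest mean of the members in each group, with 155.6, 73.6, 57.3, 144.9 and 75.6 FPKM in CON1 to CON5. HG1 to HG5 had 9.62, 274.5, 21.3, 96.6 and 44, and HP1 to HP5 had 25.2, 12.2, 56.6, 26.3 and 17.6. The highest HP library, HP3 at 56.6, lay just under the lowest CON library, CON3 at 57.3 (log2 difference -1.91 ± 0.706 SE, adjusted p 0.119). IFI35, a leucine zipper protein that binds NMI, had the smallest unadjusted p of the members in HP against CON, with 57.4, 22.5, 25.1, 30.6 and 22.4 FPKM in CON1 to CON5. It stood at 12.8, 38.4, 17.9, 22.5 and 16.5 in HG1 to HG5 and at 15.9, 16, 12, 14.4 and 12 in HP1 to HP5 (log2 difference -1.03 ± 0.272 SE, limma p 0.00165, adjusted 0.0991). CON1 stood apart from the other CON libraries for this gene, and without it the HP libraries still lay lower. CXCL10, a chemokine that draws T cells, was 4.11, 4.29, 3.4, 5.74 and 2.71 FPKM in CON1 to CON5. The level was 0.411, 8.08, 1.02, 3.76 and 2.37 in HG1 to HG5 and 1.13, 0.893, 0.705, 1.63 and 0.806 in HP1 to HP5, a CON mean 3.92 times the HP mean (log2 difference -1.30 ± 0.371 SE, limma p 0.00292, adjusted 0.0991). IFI44L was 1.62 to 3.41 FPKM in CON and 0.4 to 1.21 in HP (log2 difference -0.92 ± 0.364 SE, adjusted p 0.13). XAF1, which promotes apoptosis, had -0.80 ± 0.398 SE, and IFI44 -0.23 ± 0.317 SE.

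LGALS3BP, a secreted glycoprotein that binds galectin-3, was 31.1, 33.2, 19.3, 38.5 and 20.1 FPKM in CON1 to CON5. HG gave 20.5, 50.9, 27.5, 28.4 and 34.8 in the same order, and HP gave 16.1, 13.7, 22.6, 22.8 and 16.9. It was lower in HP than in both other groups at an unadjusted p under 0.05, with log2 differences of -0.58 ± 0.239 SE against CON and -0.75 ± 0.239 SE against HG (adjusted p 0.141 and 0.999). Of the genes for ADP-ribosylation, a protein mark that several viruses remove, PARP9 was 3.51 to 13 FPKM in CON and 2.38 to 4.51 in HP, a log2 difference of -1.10 ± 0.426 SE (limma p 0.0202, adjusted 0.125). DTX3L, the ubiquitin ligase that pairs with PARP9, had -0.41 ± 0.355 SE, and the transferases PARP14 and PARP12 had -0.27 ± 0.411 SE and -0.03 ± 0.226 SE; each of these 3 had an unadjusted p above 0.05.

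Counted over the whole list, 35 of 36 members had a log2 difference of HP from CON below 0. By the mean FPKM, TRIM25 (21.6 in HP, 19 in CON) and IFIT5 (4.04 and 3.81) lay above CON. None passed an adjusted p of 0.05 in limma, where 0.00764% of all genes tested were called lower and the same share higher. At an unadjusted p under 0.05, 18 of 36 members were lower (50%) against 5.24% of all genes, and 0 were higher against 22.6% of all genes. The HP libraries lay below every CON library for 13 of 36 members, against 0.825% of all genes, and above for 0, against 2.69%. DDX58, HERC6, RSAD2 and ISG20, in the 18, and all but DDX58 in the 13, passed the filter only through CON and HG libraries. A log2 difference below -1 was found for 11 of 36 members against 0.696% of genes, and the 35 of 36 below 0 compare with 31% of genes. The median difference was -0.80 for the members and 0.18 for all genes tested, or -0.98 relative to all genes. Without CON1 and CON3 the members' median was -0.78 with 16 lower at an unadjusted p under 0.05 (2.9% of all genes in that fit), and the number that did not overlap went from 13 to 21, against 1.9% of all genes. Under median-ratio scaling of the libraries, which takes off the shift of all genes, 25 were lower, against 13.7% of all genes, and 20 did not overlap, against 1.82%.

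The adjusted p of the leading members depended on the libraries in the fit. In a fit of only the 10 CON and HP libraries, in which HG does not enter the estimate of spread, 3 of 36 members and 7 of 13084 genes passed. The members were ISG15 (limma adjusted p 0.00793), CXCL10 (0.0421) and IFIT3 (0.0446). ISG15 also passed without HG1 (0.0253), a fit for which the number of all genes called is not given here. IFI35 and CXCL10 passed without CON2 (0.0265 and 0.045), a fit that called 2165 of 13084 genes against 2 with all libraries. Without CON2 and HP1, 5 of 36 members and 3154 of 13084 genes passed. In both of these fits that left out CON2, the share of members that passed was smaller than the share of all genes. The number of members lower at an unadjusted p under 0.05 ranged from 12 (without CON4, 5.46% of all genes) to 22 (without HG2, 4.98%) when single libraries were left out, and was 23 in the fit of 10 libraries (4.13%).

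In HG against CON, members lay on both sides of 0. At an unadjusted p under 0.05, 0 of 36 members were lower and 0 higher, where 5.5% and 21.8% of all genes were, and 0 did not overlap in either direction, against 1.13% and 4.44%. No gene of any kind passed the adjusted threshold. Of the members 26 of 36 had a log2 difference below 0, against 30.8% of all genes, and their median was -0.19 against 0.17. ISG15 had the widest difference (-1.73 ± 0.933 SE, limma p 0.0845, adjusted 0.242), with a mean of 137.4 ± 146.7 FPKM in HG, an SD larger than the mean. The median moved to 0.04 without HG1 and to -0.54 without HG2, with 13 of 36 members lower at an unadjusted p under 0.05 in the latter case, against 4.62% of all genes. A single library thus moved the size of this median, and its sign before the shift of all genes is taken off. Relative to all genes the median was -0.15 without HG1 and -0.7 without HG2, below 0 in both. Both comparisons share the CON libraries, and their values for a member are not independent.

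The direct comparison of HP with HG asks whether the form of the feed made a difference. Here 0 of 36 members passed, as did 0 of all genes, and the smallest adjusted p of a member was 0.999. All 36 members had a log2 difference below 0, against 48.8% of all genes, with a median of -0.49 against 0.01. At an unadjusted p under 0.05, 2 members were lower, LGALS3BP and MX1 (log2 difference -1.56 ± 0.678 SE, p 0.0366), against 1.02% of all genes, and 0 were higher, against 1.09%. The groups separated for 0 members, against 0.199% of all genes with HP below HG and 0.252% with HP above. For ISG15 the difference was -1.56 ± 0.933 SE with a 95% interval of -3.56 to 0.44. Without HG1, 19 members were lower, against 1.36% of all genes, and 5 did not overlap, against 0.405%. Without HG3, 9 were lower, against 0.925%, and without HG2, 1 was, against 0.848%. The median ran from -0.72 (without HG1) to -0.17 (without HG2). A difference between the diets was not detected with these 5 libraries each, and the intervals do not exclude a large one.

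**Figure D5:**
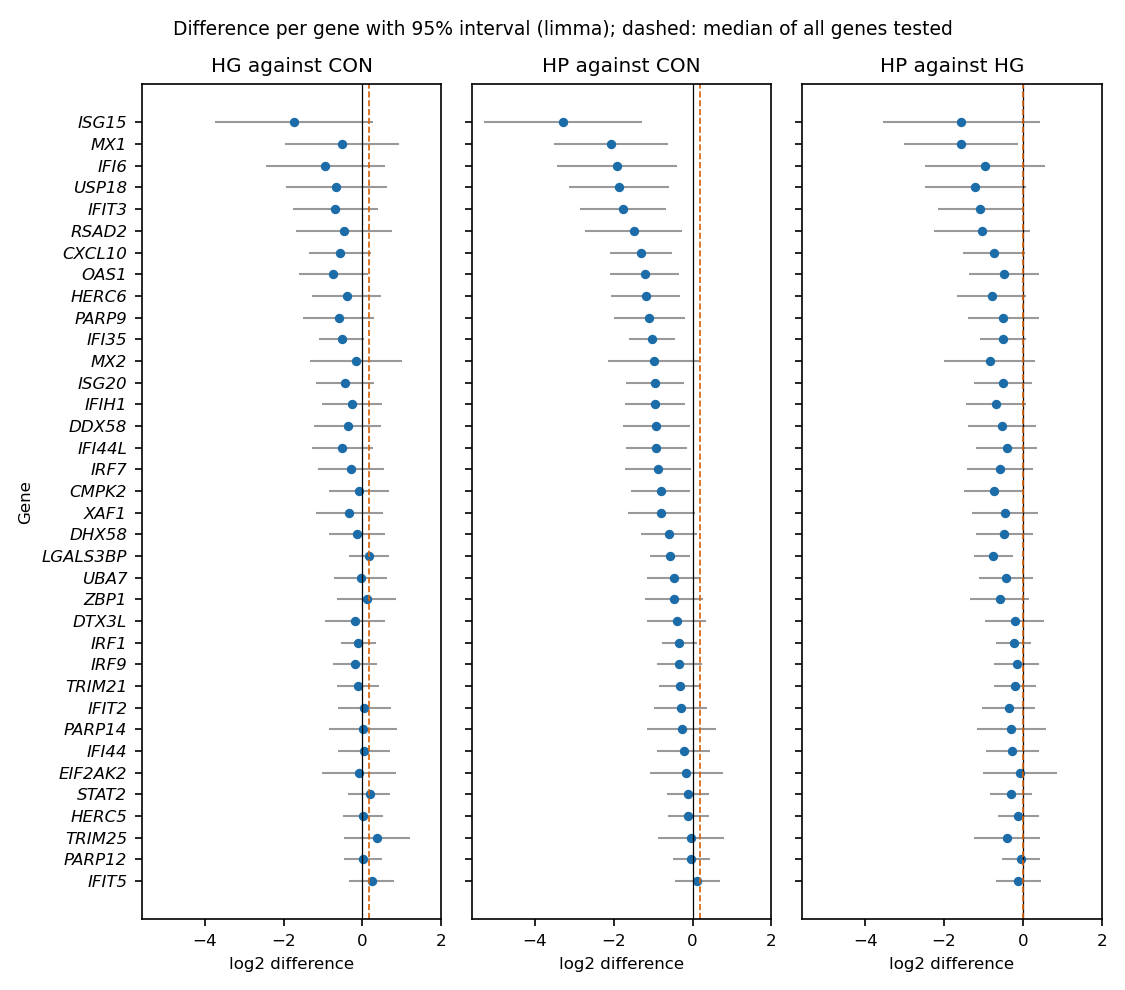
Log2 difference of each of the 36 interferon-stimulated genes tested, with its 95% interval from limma, in the 3 comparisons, each in its own panel (x axis, log2 units of FPKM + 1), ordered by HP against CON; the dashed line is the median over all genes tested. In the middle panel ISG15 lies at -3.29 and 18 intervals lie wholly below 0, while in the first panel all intervals include 0.

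Pathway genes outside the list were read the same way. Of 48 genes for interferons, receptors, kinases, inhibitors, upstream sensing and antigen presentation, 41 were tested, and 0 passed the adjusted threshold in any comparison. In HP against CON 3 were lower at an unadjusted p under 0.05 and 8 higher, near the 5.24% and 22.6% of all genes. In HG against CON 2 were lower and 11 higher, beside 5.5% and 21.8% of all genes. JAK1, a kinase bound to the interferon receptors, was 10.8, 20.1, 9.82, 20.4 and 16.3 FPKM in CON1 to CON5, 22.4, 22.1, 24.5, 23.6 and 18.6 in HG1 to HG5 and 17.6, 27, 24, 26.4 and 26.5 in HP1 to HP5. CON1 and CON3, the libraries with the lowest median FPKM, had its lowest values (log2 difference of HP from CON 0.66 ± 0.192 SE, adjusted p 0.0991). MAVS, the adaptor through which RIG-I and MDA5 signal, was 10.4 ± 3.92 FPKM in CON and 15 ± 2.34 in HP (SD, n = 5 each; adjusted p 0.119), and IRF3, which switches on interferon genes, was 7.57 ± 1.69 and 10.4 ± 1.82 (adjusted p 0.144). STAT3, which carries signals of several cytokines, was 32.5 ± 7.28 in CON and 45.5 ± 8.13 in HP, and PIAS1, an inhibitor of STAT proteins, was 2.67 ± 0.852 and 4.1 ± 0.748 (adjusted p 0.114 and 0.105). MAVS, IRF3 and STAT3 had their smallest p in HG against CON, with log2 differences of 0.64 ± 0.212 SE, 0.52 ± 0.177 SE and 0.53 ± 0.175 SE (limma adjusted p 0.0912, 0.0973 and 0.0912). The same held for JAK2, another receptor kinase, and IFNLR1, a receptor chain for lambda interferons. Their log2 differences there were 0.51 ± 0.195 SE and 0.56 ± 0.211 SE (adjusted p 0.121 and 0.117). IFNG, given with the antigen presentation genes, was singled out for its role after its values were seen.

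The 3 pathway genes lower in HP than CON serve antigen presentation, where 12 of 12 were tested. B2M, the light chain of class I molecules, was 922.5, 1368.9, 838, 1692.4 and 984.9 FPKM in CON1 to CON5. In HG1 to HG5 it was 302.7, 1324.1, 478, 1665.5 and 623, and in HP1 to HP5 it was 509.7, 588.4, 412.5, 851.5 and 327.6, with HP4 just above CON3 (log2 difference -1.13 ± 0.401 SE, limma p 0.0125, adjusted 0.111). PSMB10 and PSME2, a subunit and an activator chain of the immunoproteasome, were 13.4 ± 3.56 and 23.8 ± 2.67 FPKM in HP against 24.3 ± 6.97 and 36.1 ± 7.42 in CON (SD, n = 5 each; adjusted p 0.0991 and 0.105), and for PSME2 these groups did not overlap. PSMB10 and PSME2 were also lower in HG than CON (log2 difference -0.61 ± 0.239 SE and -0.41 ± 0.189 SE, unadjusted limma p 0.0211 and 0.0478). IFNG, the gene of interferon gamma, was 0.0409 to 0.38 FPKM in CON, at most 0.136 in the diet groups, and listed at 0 in HG1, HP3 and HP5; the other interferon genes of the list were not analysed here.

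Genes other than the members that followed them most closely were found by Pearson correlation of log2(FPKM + 1) with the median standardised value of the members over the 15 libraries, a description in which all points share their libraries and HG2 and HG1 form the ends. The 10 highest were PLSCR1 (r = 0.96), BST-2A (0.95), BST-2B (0.92), MOV10 (0.92), RTP4 (0.90), PNPT1 (0.89), B2M (0.87), WARS (0.87), TAP2 (0.86) and IDO1 (0.83), and without HG1 and HG2 their r was 0.73 to 0.94. Of these, B2M and TAP2 are also on the list of pathway genes. Several of them are themselves known to respond to interferon, among them the scramblase gene PLSCR1, the RNA helicase gene MOV10, the peptide transporter gene TAP2 and IDO1, an enzyme that degrades tryptophan. BST-2A and BST-2B are the sheep copies of tetherin, which holds budding virus at the membrane, and reads may be shared between them. BST-2A was 41.1, 21, 15.6, 34.6 and 19 FPKM in CON1 to CON5. HG1 to HG5 had 2.62, 99.3, 5.18, 19.5 and 15.5, and HP1 to HP5 had 6.68, 4.84, 5.96, 5.99 and 2.97, with HP below every CON library (log2 difference -2.06 ± 0.656 SE, adjusted p 0.101). BST-2B was 24, 32.3, 5.81, 33 and 15.6 FPKM in CON1 to CON5. It stood at 5.35, 69.6, 6.22, 26.7 and 19.2 in HG1 to HG5 and at 4.41, 5.15, 15, 12.6 and 2.59 in HP1 to HP5, with overlap. Both copies were picked because they followed the members over these same libraries. Their differences between HP and CON are therefore not a result independent of the members. A further row, which RefSeq names IFIT1, was 0.776 to 5.92 FPKM in CON, 0.794 to 11.2 in HG with HG2 highest, and 1.02 to 2.42 in HP; it was looked up after the values of the members were seen.

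Members also differed in how closely they followed each other. The Pearson r of a member with the median of the others over the 15 libraries was 0.88 at the median and above 0.8 for 28 of 36 members. It was highest for RSAD2 and HERC6 (0.97 each) and lowest for TRIM25 (0.18), EIF2AK2 (0.53) and IFIT5 (0.55). Several members are neighbours in the RefSeq annotation of assembly ARS-UI_Ramb_v3.0, used here for names and order only, in which 35 of 37 members were found. CMPK2 lies next to RSAD2 (r = 0.95), MX1 next to MX2 (0.90), DTX3L next to PARP9 (0.89) and PARP14 (0.92), IFI44 next to IFI44L (0.85), IFIT2 next to IFIT3 (0.82) and HERC5 next to HERC6 (0.74). These 7 values are between single genes and cannot be set against the 0.88 above, which is with a median over members. Values for pairs of members that are not neighbours are not given here. Of the pairs with 1 gene between them, PARP14 and PARP9 had 0.76 and IFIT3 and IFIT5 had 0.36.

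Markers of immune cells were set beside these values. Leukocyte markers, 3 of 3 tested, summed to 17.9 to 31.4 FPKM in CON, 16.5 to 37.8 in HG and 15.1 to 40.5 in HP, and T and NK cell markers, 4 of 6 tested, to 16.1 to 31 FPKM in CON, 10.2 to 27.2 in HG and 9.71 to 31.5 in HP; 0 of either list were lower in HP than CON at an unadjusted p under 0.05. Macrophage markers, 6 of 7 tested, summed to 167.5 to 315.7 FPKM in CON, 74.4 to 267.6 in HG and 80.8 to 199 in HP. In HP 4 of these were lower than in CON at an unadjusted p under 0.05, namely C1QA, C1QB, C1QC and CD5L, and CSF1R was higher. CD5L passed the adjusted threshold (log2 difference -3.36 ± 0.505 SE, adjusted p 0.0448). In HG against CON, CD5L was also lower (log2 difference -2.7 ± 0.505 SE, limma adjusted p 0.0779) and CSF1R also higher (unadjusted limma p 0.0114). C1QA, C1QB and C1QC had log2 differences of -0.53, -0.45 and -0.58 there, with unadjusted p above 0.05. The macrophage sum was lowest in HG1 (74.4) and, within HG, highest in HG2 (267.6), the libraries at the ends of the interferon-stimulated genes, and B and plasma cell markers, 2 of 5 tested, summed to 1.96 in HG1 against 12.1 to 72.8 in the other libraries. Dendritic cell markers, 1 of 5 tested, summed to 2.88 to 6.89 FPKM in CON, 2.11 to 6.41 in HG and 2.78 to 8.43 in HP. Neutrophil markers, 2 of 4 tested, summed to 1990.5 to 11335.5 FPKM in CON, 866.4 to 3812.8 in HG and 701.6 to 4282.4 in HP, nearly all of it S100A8 and S100A9, which keratinocytes also express. S100A8 was lower than in CON in both diet groups, at an unadjusted limma p of 0.0392 in HP and 0.0346 in HG. No marker of these lists that was in the files had a mean under 0.1 FPKM. The part of these cells in the differences of the interferon-stimulated genes was not tested.

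Smooth muscle markers, 5 of 5 tested, were highest in HG2 (3904.1 FPKM summed), the library with the highest interferon-stimulated genes, and next highest in HG3 (2669.2) and HP5 (2243.6), in which the members stood at a median of -0.66 and -0.90. Without CON1, HG2, HG3 and HP5, the libraries over 1000 FPKM, a choice made after seeing the data, the members' median in HP against CON was -0.57. In that fit 16 members were lower at an unadjusted p under 0.05, against 2.8% of all genes, and 13 did not overlap, against 1.46%. In HG against CON the median was -0.42 with 6 lower, against 1.9% of all genes, and in HP against HG it was -0.19 with 0 lower, against 0.994%.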

How the data were processed

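The authors deposited FPKM for 19304 genes in each of 15 tables, per the file headers. The submitters' processing notes list HISAT2 and StringTie 1.3.4d without saying what each did. The sources used here give no build, annotation, strand or filters. Read depth is lost in FPKM, so values carry no counting interval, and a change in a few abundant genes moves the rest. Whole-read steps were not seen among low values.

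Members and lists were chosen with earlier results of these data known. For the comparisons, limma 3.58.1 (R 4.3.3, statmod 1.5.0; trended and robust variance) was fitted to log2(FPKM + 1) as group means of all 15 libraries. Tested were 13084 genes, those reaching 1 FPKM in 5 or more libraries. Adjustment was by Benjamini-Hochberg over them, threshold 0.05. The fit was tested on simulated data. Small values are compressed by the added 1.

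By rule, per-library values cover the sensors, the regulators and up to 16 effectors (by level or p), and the text names the 10 pathway genes with the smallest p in any comparison and the 10 genes, other than members, most like the members. Tried instead were: a pseudocount of 0.1; no filter, or one at 5 FPKM; scaling by median ratios or quantiles; 10-library fits; array weights; a replicate block; omission of each library, of CON1 and CON3, or of CON2 and HP1. Chosen after seeing the data were the omission of CON1, HG2, HG3 and HP5 and the counts of members without overlap under other settings. The highest Pearson r between libraries was 0.9636, and 0 were identical.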

Additional observations from a re-analysis of the deposited data

Results flagged for a closer look

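Within groups of 5 libraries, 114 sets of FPKM values, taken without a logarithm, were examined for a library far from the others, and 11 met Dixon's criterion. Chance meets it in about 1 in 20 sets if values are normally distributed. FPKM without a logarithm need not be, so the 11 are not set against that rate. Of these, 8 lay in HG2, which was far above the other HG libraries for DDX58 (5.08 FPKM), ZBP1 (6.57), HERC5 (3.1), HERC6 (6.92), IFIT2 (4.25), RSAD2 (15.8), CMPK2 (14.9) and IFI44L (6.45). These 8 share a library and are not independent. CON1 was far above the other CON libraries for IRF7 (37.4 FPKM) and IFI35 (57.4). HP1 was far below the other HP libraries for TRIM25, at 3.7 FPKM against 23.1 to 30.1.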

How the results depend on the processing

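The direction of the members' median in HP relative to CON was below 0 under all 26 alternatives, from -1.03 (quantile normalization) to -0.57 (without CON1, HG2, HG3 and HP5), and between HP and HG it was below 0 under all 26, from -0.72 to -0.17. In HG relative to CON it ran from -0.54 to 0.04. Of the single-gene values under alternatives, 503 kept their direction and side of the threshold and 10 passed it where the reported fit had not; 0 reversed.

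Counts moved as follows, and the cause was not tested. In HG relative to CON, genes called went from 0 to 1 with the filter at 5 FPKM, 1 with the 10 libraries compared, 868 with array weights, 2552 without CON2 and HP1 and 2 without CON1, HG2, HG3 and HP5. Members lower at an unadjusted p under 0.05 went from 0 to 3 with median-ratio scaling (12.8% of all genes), 2 with quantile normalization (12%) and 6 without those 4 libraries (1.9%), and members higher from 0 to 1 without CON2 and HP1. In HP relative to CON, genes called went from 2 to 1 with a pseudocount of 0.1 or no filter, 7 with the 10 libraries compared, 0 with array weights or without CON1 and CON3, and 3154 without CON2 and HP1. Members called went from 0 to 3 with the 10 libraries compared and 5 without CON2 and HP1. Members lower went from 18 to 11 with the filter at 5 FPKM, which left 18 members tested, and to 11 without CON2 and HP1 (9.43% of all genes), where 1 was higher; it went to 25 with median-ratio scaling (13.7%) or quantile normalization (10.2%) and to 23 with the 10 libraries compared (4.13%). Members without overlap went from 13 to 20 with median-ratio scaling and 21 without CON1 and CON3. In HP relative to HG, members lower went from 2 to 4 with median-ratio scaling or array weights, 6 with quantile normalization, 1 with the 10 libraries compared and 0 without the 4 libraries named, where 2 genes were called. For the scalings, the array weights and the 10 libraries in HP relative to HG, the share of all genes is not given here. The same holds for the filter at 5 FPKM in HP relative to CON. Those counts are not read as a result about the members.

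With each library left out in turn, genes called ranged from 0 to 2209 in HG relative to CON, from 0 to 2165 in HP relative to CON (both highest without CON2) and from 0 to 1 between the diets. Members called ranged from 0 to 2 in HP relative to CON. Members lower ranged from 0 to 13 in HG, with 13 without HG2, against 3.83% (without HG3) to 6.8% (without CON2) of all genes. They ranged from 12 to 22 in HP, and from 1 to 19 between the diets, with 19 without HG1. The shares of all genes at these ends are given above. Members higher ranged from 0 to 1 in HG and in HP relative to CON. In HG this stands against 13.2% (without CON3) to 28.2% (without CON2) of all genes. Members without overlap ranged from 13 to 19 in HP relative to CON and from 0 to 5 between the diets. With all libraries, 0.825% of all genes were lower without overlap in HP relative to CON and 0.199% between the diets. These shares also move when a library is left out. The share for the fit with 5 is given above, and that for the fit with 19 is not given here. The 19 is therefore not read as a result about the members.

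Residuals of same-numbered libraries correlated at -0.199 to 0.293. Libraries with different numbers were not set beside these, so whether replicate numbers pair the libraries is not settled. With a replicate block, 1 gene was called in HP relative to CON and 6 members were lower in HP relative to HG. The share of all genes lower in that fit is not given here, so the 6 are not read as a result about the members. The unknown depth limits statements on members near or below 1 FPKM, such as ISG20, HERC6 and OAS2.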
